A study of Mus musculus with 24 samples.

Results

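The genes described here are 7 genes of blood vessel growth, chosen by symbol from the 54532 genes of the deposited expression table: Adm, Vegfa, Vegfb, Vegfc, Pgf, Angptl4 and Nrp1. Of these, 6 encode secreted proteins. Nrp1 encodes a membrane co-receptor, so the name of secreted factors does not cover it. RNA was sequenced from HY19636, a cell line of mouse pancreatic ductal adenocarcinoma. By its title, the series asks whether hepatocytes feed serine to pancreatic cancer cells that spread to the liver, and its design crossed 3 factors. Cells were knocked out (KO) for Phgdh, the gene of the first enzyme of serine synthesis, or wild type (WT). The medium was either free of serine and glycine (depleted medium) or contained both (replete medium). The cells were grown with hepatocytes (coculture) or alone (monoculture), which makes 8 groups of 3 libraries.

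The sources used here do not give how the KO was made, whether it is 1 clone, or how cancer cells were separated from hepatocytes. Replicates are not labelled as separate cultures, so p-values measure only the spread among the libraries, possibly of technical origin. The libraries held 15740081 to 23479425 reads each. In 2 KO monocultures, replicate 1 of the replete group and replicate 1 of the depleted group, the library stood apart from the others of its group. The depleted KO cocultures also differed widely among themselves, with a chi-square per degree of freedom of 13.8 to 41.1 between libraries, against 53.0 and 65.7 for the replete and 14.1 and 18.2 for the depleted KO monoculture that stood apart. Phgdh transcript, the targeted gene, was at 606 to 817 FPKM in depleted and 868 to 885 FPKM in replete KO cocultures, against 1249 to 1405 and 1236 to 1333 FPKM in the WT cocultures. In monoculture it was at 616 to 737 FPKM in depleted and 372 to 548 FPKM in replete KO cells, against 789 to 818 and 903 to 934 FPKM in WT cells. Each KO range thus lay below the WT range of the same medium and culture, and the transcript was present in every KO library. The 10 epithelial and pancreatic cancer markers, among them Krt8, Krt18 and Krt19, summed to 2302 to 4192 FPKM in cocultures and 1220 to 4635 FPKM in monocultures, while Epcam was low, with 299 reads in the 12 cocultures and 107 in the 12 monocultures.

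Vascular endothelial growth factor A, the product of Vegfa, drives the sprouting of blood vessels through the receptor encoded by Kdr, while the products of Vegfb and Pgf bind the receptor encoded by Flt1 and that of Vegfc acts mainly on lymphatic vessels. Adrenomedullin, the product of Adm, is a vasodilator peptide that acts on endothelial cells through the receptor encoded by Calcrl together with Ramp2 or Ramp3. Adm, Vegfa, Pgf and Angptl4 are known targets of hypoxia-inducible factor (HIF), which binds a short core motif, ACGTG or GCGTG, in its target genes. Angptl4, which inhibits lipoprotein lipase, is also a known target of the fatty acid receptors of the PPAR family, and Nrp1 encodes a co-receptor for vascular endothelial growth factors and semaphorins.

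The promoters of Adm and of the 3 ligand genes of the vascular endothelial growth factor family with substantial expression are shown because the values below set apart Adm and Pgf, which changed most with coculture among these 4 genes, from Vegfa and Vegfb. Each sequence holds the 250 bases before the first RefSeq start listed for the gene on GRCm38.p6, written 5′ to 3′ on the strand of the gene, with matches to ACGTG or GCGTG on either strand in capitals. The windows are chr7:110627407-110627656 (plus strand) for Adm, chr12:85177314-85177563 (minus strand) for Pgf, chr17:46032378-46032627 (minus strand) for Vegfa and chr19:6987652-6987901 (minus strand) for Vegfb. The RefSeq start can differ from the end of the gene in the deposited table, and for Pgf it lies inside that gene.
Adm: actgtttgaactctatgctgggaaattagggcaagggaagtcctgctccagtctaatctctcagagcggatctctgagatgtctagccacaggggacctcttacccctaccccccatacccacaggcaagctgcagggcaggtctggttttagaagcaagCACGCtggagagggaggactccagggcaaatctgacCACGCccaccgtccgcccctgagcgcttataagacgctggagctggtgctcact
Pgf: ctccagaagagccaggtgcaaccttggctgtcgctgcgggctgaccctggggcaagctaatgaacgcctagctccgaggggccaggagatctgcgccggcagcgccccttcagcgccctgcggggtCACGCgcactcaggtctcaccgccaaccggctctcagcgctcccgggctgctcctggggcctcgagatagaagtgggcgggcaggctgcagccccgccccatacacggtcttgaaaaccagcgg
Vegfa: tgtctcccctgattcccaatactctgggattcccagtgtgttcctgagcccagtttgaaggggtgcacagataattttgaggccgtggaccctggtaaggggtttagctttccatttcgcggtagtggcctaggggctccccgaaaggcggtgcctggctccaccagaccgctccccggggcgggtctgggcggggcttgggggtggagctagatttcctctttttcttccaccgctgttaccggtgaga
Vegfb: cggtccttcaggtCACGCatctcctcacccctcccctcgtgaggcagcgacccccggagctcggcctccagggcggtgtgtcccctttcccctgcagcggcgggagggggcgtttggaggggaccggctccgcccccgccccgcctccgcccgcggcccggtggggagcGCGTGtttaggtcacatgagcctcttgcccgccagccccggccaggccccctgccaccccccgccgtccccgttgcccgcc
The Adm window held 2 matches to GCGTG, both on the strand opposite to the gene, at 90 to 86 and at 54 to 50 bases before the start. The Pgf window held 1 match to GCGTG, on the opposite strand 124 to 120 bases before the start. The Vegfb window held 2, at 237 to 233 bases on the opposite strand and at 81 to 77 bases on the strand of the gene. The Vegfa window held 0 matches, which says only that these letters are not in these 250 bases. RefSeq gives a second start for Vegfa and for Pgf. The window of the second Vegfa start (chr17:46025164-46025413), which lies inside the gene, held 2 matches. These were GCGTG at 218 to 214 bases on the strand of the gene and ACGTG at 211 to 207 bases on the opposite strand. The window of the second Pgf start (chr12:85175983-85176232), also inside its gene, held 0. The windows of Nrp1 and Vegfc, which are not printed, held 1 and 0 matches. Of 32851 such windows of mouse genes, 38.6% held at least 1 match to either motif, 28.2% to GCGTG and 16.6% to ACGTG, and 16.7% held at least 2 matches in all, so a match is common and none is shown to be a binding site.

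Adm was close to silent in cells grown alone and abundant in cells grown with hepatocytes, in both genotypes and in both media. On the log2(FPKM + 1) scale its coculture rise was the largest of the 12061 genes tested in WT cells in either medium. That rise ranked 2 in KO cells in replete medium and 34 in KO cells in depleted medium. Adm reached the minimum for a test, 1 FPKM in at least 3 libraries, only through its cocultures. Its coculture tests and ranks thus rest on the groups that admitted it. Among the cocultures the KO cells had less Adm than the WT cells, and it was lowest in KO cells in depleted medium. The gene lies at chr7:110627661-110629820 on the plus strand of GRCm38 and has 4 merged exon blocks. An antisense gene, Gm28863, at 0 to 3.12 FPKM, spans it without sharing an exonic base, and whether counting used strand is not given.

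In KO cells in depleted medium, Adm was at 10.1, 11.8 and 12.3 FPKM in the 3 cocultures, against 0.105, 0.128 and 0.194 FPKM in the 3 monocultures. In KO cells in replete medium it was at 24.1, 21.3 and 23.8 FPKM in cocultures, against 0.568, 0.356 and 0.613 FPKM in monocultures. FPKM, the unit of the deposited table, counts fragments per kilobase of gene and is scaled by a total for each library, close to its reads but not equal to them. The WT cells in depleted medium held 29.7, 30.9 and 30.3 FPKM in cocultures, against 0.200, 0.264 and 0.634 FPKM in monocultures. In replete medium the WT values were 35.3, 36.1 and 32.7 FPKM in cocultures, against 0.380, 0.702 and 0.397 FPKM in monocultures. Every coculture library was thus above every monoculture library, and the 4 coculture groups did not overlap with each other. The monoculture values rest on 3 to 22 reads per library and the coculture values on 285 to 1095, so differences among the monocultures are close to the limit of this depth.

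The ratio of mean FPKM, coculture over monoculture, was 80.1 in KO cells in depleted medium, 45.0 in KO cells in replete medium, 82.8 in WT cells in depleted medium and 70.4 in WT cells in replete medium. On the log2(FPKM + 1) scale used for the tests, which understates the change of genes that are low in 1 group, the rises of Adm were 3.44, 3.99, 4.53 and 4.59 in the same order (SE 0.105 for each). The highest of the 4 limma adjusted p-values was 5.5e-16, in tests that rest on the cocultures through which alone Adm was admitted. In a bulk sample, fewer cells of a type and less RNA per cell cannot be told apart. Of 16 hepatocyte marker genes, 9 were at 0 in all 12 cocultures, among them Fga, Fgb, Ahsg and Cyp2e1, and their summed level was 0.940 to 2.49 FPKM in cocultures and 0.453 to 2.59 FPKM in monocultures. Alb, the most abundant hepatocyte transcript, had 7 reads in the 12 cocultures together and 3 in the 12 monocultures. Most reads of the hepatocyte list came from Ass1, with 668 in the cocultures and 576 in the monocultures. The 12 markers of stellate cells and fibroblasts summed to 1.70 to 2.58 FPKM in cocultures, against 0.350 to 1.46 FPKM in monocultures, nearly all from Pdgfra, with 2 of the 12 (Col3a1 and Lrat) at 0 in all libraries. The 12 endothelial markers summed to 1.66 to 3.59 FPKM in cocultures, against 0.435 to 2.52 FPKM in monocultures, with Lyve1 and Clec4g at 0 in all libraries. Most of their reads came from Vwf (1689 in cocultures, 2075 in monocultures), Egfl7 (946 and 504) and Cdh5 (461 and 112). The 12 markers of macrophages and Kupffer cells summed to 6.26 to 16.6 FPKM in cocultures, against 2.08 to 29.1 FPKM in monocultures, with Adgre1 and Timd4 among those at 0 in all libraries. Most of their reads came from Cd14 (1897 in cocultures, 3899 in monocultures) and Cd68 (1598 and 1472). The part of these small differences in the coculture results was not tested.

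Between genotypes, the coculture level of Adm was 11.4 ± 1.14 FPKM in KO cells and 30.3 ± 0.566 FPKM in WT cells in depleted medium (SD, n = 3 each), a log2 difference of -1.34 (SE 0.105, limma adjusted p = 2.69e-09). In replete medium it was 23.1 ± 1.55 FPKM in KO cocultures and 34.7 ± 1.78 FPKM in WT cocultures (SD, n = 3 each), a log2 difference of -0.57 (limma adjusted p = 0.000195), which had an adjusted p of 0.0674 with a pseudocount of 0.1. Withdrawal of serine and glycine lowered Adm in KO cocultures, by 0.96 on the log2 scale (limma adjusted p = 2.06e-06). In WT cocultures the withdrawal difference was -0.19 (95% confidence interval -0.41 to 0.03). The difference of these 2 withdrawal effects was -0.77 (limma adjusted p = 0.00213), with an adjusted p of 0.129 under the pseudocount of 0.1. In monoculture Adm was lower in depleted than in replete KO cells by -0.40 (limma adjusted p = 0.00219), on 3 to 5 reads per depleted library against 14 to 22 per replete library, and the call was lost with quantile normalization. It was also lower in depleted KO than in depleted WT monocultures, by -0.24 (limma adjusted p = 0.043), a call lost in several alternatives. Among replete monocultures the KO minus WT difference was 0.02 (95% confidence interval -0.20 to 0.24).

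**Figure D1:**
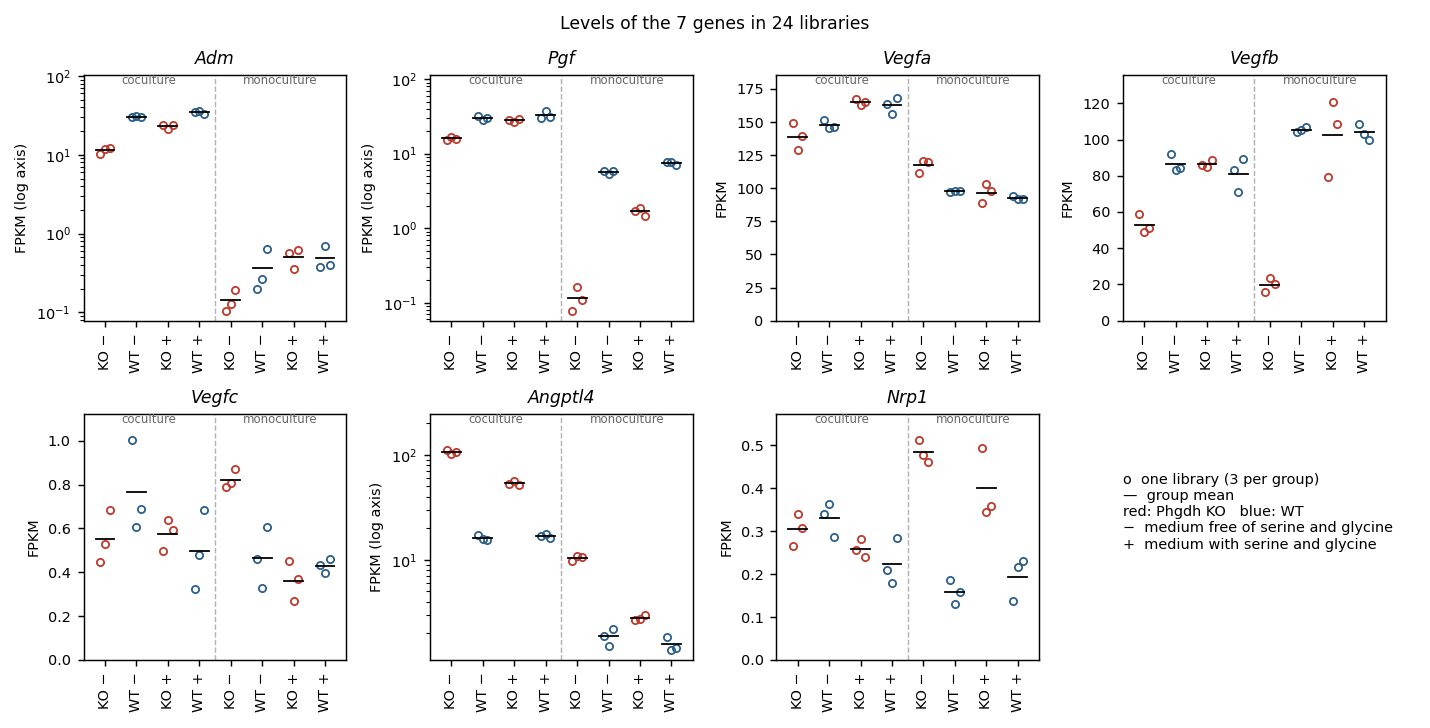
FPKM of the 7 genes in each of the 24 libraries (circles, 3 per group, with a bar at the group mean), on a log axis for Adm, Pgf and Angptl4 and a linear axis from 0 for the others. Cocultures stand left of the dashed line and monocultures right of it, KO in red and WT in blue. Adm, Pgf and Angptl4 are higher in each coculture group than in its monoculture group, while Vegfb is lowest in KO monocultures in depleted medium, at 15.7 to 23.4 FPKM.

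Pgf, which encodes placental growth factor, rose in coculture in every genotype and medium, and it differed between genotypes in monoculture, where Adm hardly did. KO cells grown alone had little Pgf, and KO cells grown alone in depleted medium had almost none. In coculture the KO cells came close to the WT level in replete medium and stayed below it in depleted medium. The gene lies at chr12:85166635-85177790 on the minus strand.

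In depleted medium, Pgf was at 15.2, 16.8 and 16.0 FPKM in the KO cocultures, against 0.0784, 0.161 and 0.108 FPKM in the KO monocultures. In replete medium it was at 28.0, 26.6 and 29.5 FPKM in KO cocultures, against 1.69, 1.89 and 1.48 FPKM in KO monocultures. These monoculture values rest on 4 to 9 reads per library in depleted medium and 80 to 133 in replete medium. The WT cells held 32.1, 28.6 and 29.9 FPKM in depleted cocultures, against 5.95, 5.39 and 5.80 FPKM in depleted monocultures. In replete medium the WT values were 29.98, 37.5 and 30.6 FPKM in cocultures, against 7.70, 7.79 and 7.06 FPKM in monocultures. No coculture group overlapped with its monoculture group, and all 4 monoculture groups were separate from each other.

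The ratio of mean Pgf FPKM, coculture over monoculture, was 138 in KO cells in depleted medium, 16.7 in KO cells in replete medium, 5.29 in WT cells in depleted medium and 4.35 in WT cells in replete medium. The log2(FPKM + 1) rises were 3.93, 3.44, 2.22 and 1.98 in that order (SE 0.077 for each, highest limma adjusted p = 1.01e-13). The coculture rise was larger in the KO than in WT by 1.71 in depleted medium (limma adjusted p = 1.02e-10) and by 1.46 in replete medium (limma adjusted p = 9.1e-08). Between genotypes, Pgf was lower in KO than in WT monocultures, by -2.59 in depleted medium (limma adjusted p = 2.9e-16) and by -1.67 in replete medium (limma adjusted p = 2.31e-12). With voom on the recovered reads these differences of Pgf were -5.63 and -2.18.

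In depleted cocultures Pgf averaged 16.0 ± 0.804 FPKM in KO cells and 30.2 ± 1.75 FPKM in WT cells (SD, n = 3 each), a log2 difference of -0.88 (limma adjusted p = 1.37e-08). In replete cocultures it averaged 28.1 ± 1.45 FPKM in KO cells and 32.7 ± 4.18 FPKM in WT cells (SD, n = 3 each), a difference of -0.21 (limma adjusted p = 0.0355) that lost its call with a pseudocount of 0.1 (adjusted p = 0.144) and without any of 3 single libraries, KO coculture replicates 1 and 2 (0.0753 and 0.132) and WT coculture replicate 2 (0.257). That call was also lost with no filter (limma adjusted p = 0.0638) and with only those groups in the fit (0.0952). Withdrawal lowered Pgf in KO cells, by 1.26 in monoculture and 0.77 in coculture on the log2(FPKM + 1) scale (limma adjusted p = 1.98e-11 and 6.51e-07). With voom on the recovered reads these changes were -3.82 and -0.80, the first on 4 to 9 reads per depleted monoculture library. In WT cells the withdrawal difference was -0.34 in monoculture (limma adjusted p = 0.0263) and -0.10 in coculture (95% confidence interval -0.27 to 0.06). The monoculture call was lost without any of 5 single libraries, with a pseudocount of 0.1 (limma adjusted p = 0.105) and with voom (0.0932). The withdrawal effect in KO cells differed from that in WT cells, by -0.92 in monoculture and -0.67 in coculture (limma adjusted p = 5.51e-07 and 0.000512). With voom these differences were -3.45 and -0.72.

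Vegfa, the main ligand of vessel sprouting, was already abundant in monoculture and rose in coculture by much less than Adm or Pgf. The rise was present in all 4 settings and smallest in KO cells in depleted medium. The gene lies at chr17:46016993-46032369 on the minus strand, and its 4285 bases of merged exons come from 13 annotated transcripts, which the table sums into 1 value. Isoforms were not told apart.

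In depleted medium, Vegfa was at 149, 129 and 139 FPKM in KO cocultures, against 112, 121 and 120 FPKM in KO monocultures. In replete medium it was at 167, 163 and 165 FPKM in KO cocultures, against 89.2, 103 and 97.7 FPKM in KO monocultures. WT cells held 146 to 152 FPKM in depleted and 156 to 168 FPKM in replete cocultures, against 97.2 to 98.2 and 91.7 to 94.4 FPKM in the monocultures. No coculture group overlapped with its monoculture group, but KO and WT cocultures of the same medium did overlap with each other.

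The coculture rises of Vegfa on the log2(FPKM + 1) scale were 0.24 in KO cells in depleted medium, 0.77 in KO cells in replete medium, 0.59 in WT cells in depleted medium and 0.80 in WT cells in replete medium (SE 0.0546 for each, highest limma adjusted p = 0.00064). In depleted medium the rise was smaller in KO than in WT cells, by -0.35 (limma adjusted p = 0.000571), a call lost with quantile normalization (-0.10, adjusted p = 0.179). In replete medium the difference of the rises was -0.03 (95% confidence interval -0.19 to 0.13). Withdrawal raised Vegfa in KO monocultures by 0.28 (limma adjusted p = 0.000136) and lowered it in KO cocultures, by 0.25 (limma adjusted p = 0.00232; 0.0502 with only these 2 groups in the fit). These opposite changes differed by -0.53 (limma adjusted p = 8.9e-06). Vegfa was higher in KO than in WT monocultures in depleted medium, at 118 ± 4.89 and 97.7 ± 0.522 FPKM (SD, n = 3 each), a log2 difference of 0.26 (limma adjusted p = 0.000234) that shrank to 0.04 with quantile normalization (adjusted p = 0.488).

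Vegfb, whose product binds the receptor encoded by Flt1, took another course. It was as abundant as Vegfa in 3 of the 4 monoculture groups, did not rise in coculture in them, and was low in 1 group, the KO cells grown alone in depleted medium. The gene lies at chr19:6982473-6987651 on the minus strand.

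Vegfb was at 15.7, 23.4 and 20.5 FPKM in KO monocultures in depleted medium, against 104, 105 and 107 FPKM in the WT monocultures. In KO cocultures in depleted medium it was at 58.9, 48.9 and 51.0 FPKM, against 92.1, 83.3 and 84.3 FPKM in the WT cocultures. In replete medium the KO monocultures held 79.3, 121 and 108 FPKM, against 104 ± 4.42 FPKM in WT monocultures (SD, n = 3), and the KO cocultures held 86.1, 84.6 and 88.5 FPKM, against 83.1, 71.0 and 89.0 FPKM in WT cocultures. The depleted KO groups were thus below all other groups without overlap, and the replete KO and WT groups overlapped in both cultures. The lowest replete KO monoculture value, 79.3 FPKM, came from replicate 1, the library that stood apart.

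In depleted medium the KO cells had less Vegfb than the WT cells, by -2.37 in monoculture and by -0.70 in coculture (SE 0.132, limma adjusted p = 3.57e-12 and 0.000164). Withdrawal lowered it in KO cells, by 2.31 in monoculture and 0.70 in coculture on the log2 scale (limma adjusted p = 7.26e-12 and 0.000627), while in WT cells the withdrawal differences were 0.02 and 0.10 (95% confidence intervals -0.25 to 0.30 and -0.18 to 0.38). The withdrawal effect differed between genotypes by -2.33 in monoculture and by -0.80 in coculture (limma adjusted p = 2.47e-09 and 0.00788). Coculture raised Vegfb in KO cells in depleted medium by 1.38 (limma adjusted p = 1.4e-08). Elsewhere its coculture differences were -0.23 in replete KO cells and -0.28 in depleted WT cells, neither of which passed the test, and -0.36 in replete WT cells (limma adjusted p = 0.0433). Both of the differences that did not pass were called with quantile normalization (adjusted p = 0.0347 in replete KO and 0.0193 in depleted WT cells) and with voom (0.036 and 0.0195), and that in depleted WT cells also with only those groups in the fit (0.00344). The call in replete WT cells was lost without any of 5 single libraries, with the replicate block (adjusted p = 0.0561) and with no filter (limma adjusted p = 0.0943). Without replicate 1 of the KO monocultures the replete KO difference was -0.40 (limma adjusted p = 0.0119).

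The summed FPKM of the 4 ligand genes Vegfa, Vegfb, Pgf and Vegfc was 208 ± 14.4 in KO and 266 ± 9.78 in WT cocultures in depleted medium, and 280 ± 4.81 in KO and 277 ± 11.8 in WT cocultures in replete medium (SD, n = 3 each). In monoculture it was 138 ± 8.73 in KO and 209 ± 1.78 in WT cells in depleted medium, and 202 ± 28.3 in KO and 205 ± 6.11 in WT cells in replete medium (SD, n = 3 each). Vegfb made up 14.3% of this sum in depleted KO monocultures and 50.4% to 50.8% in the other monocultures. In cocultures Vegfb made up 25.3% in depleted KO cells and 29.2% to 32.6% in the other 3 groups. Pgf made up 7.72% of the sum in depleted KO cocultures and 10.0% to 11.9% in the other cocultures, against 0.0828% to 3.67% in monocultures. FPKM is per length of merged exons, so these shares compare transcripts and not proteins.

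**Figure D2:**
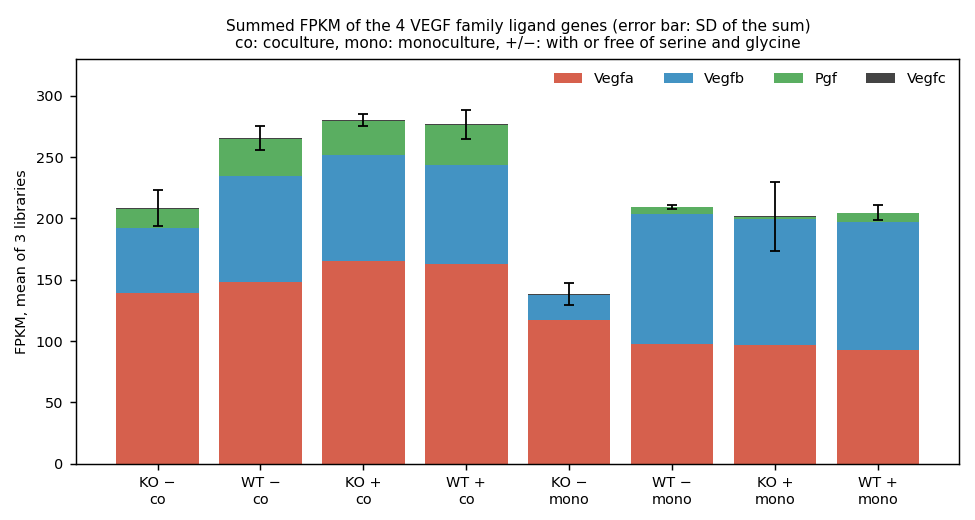
Mean FPKM of Vegfa, Vegfb, Pgf and Vegfc stacked for each group of 3 libraries, with the SD of the sum as an error bar (co: coculture, mono: monoculture, minus: depleted medium, plus: replete medium). The sum is lowest, 138 FPKM, in depleted KO monocultures, where little Vegfb remains, and the Pgf segment is visible mainly in the cocultures.

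Angptl4, an angiopoietin-like protein that acts on vessels and on lipoprotein lipase, rose in coculture in every setting, and unlike Adm and Pgf it was higher in KO than in WT cells in every setting. Its highest level was in KO cells grown with hepatocytes in depleted medium. The gene lies on chromosome 17 from 33773750 on the minus strand, where the deposited table ends it at 33781575 and the GENCODE vM21 annotation at 33781830.

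In depleted medium, Angptl4 was at 111, 102 and 106 FPKM in KO cocultures, against 17.1, 15.9 and 15.4 FPKM in WT cocultures. In replete medium it was at 52.7, 55.6 and 51.7 FPKM in KO cocultures, against 16.9, 17.7 and 16.2 FPKM in WT cocultures. The KO cocultures were thus separate from each other and from both WT coculture groups, while the WT cocultures of the 2 media overlapped. In monoculture the depleted KO cells held 9.72, 10.8 and 10.6 FPKM, against 1.89, 1.51 and 2.19 FPKM in depleted WT cells. The replete KO monocultures held 2.67, 2.73 and 2.99 FPKM, against 1.85, 1.38 and 1.45 FPKM in replete WT monocultures. Again the WT groups of the 2 media overlapped and the KO groups did not.

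The KO minus WT difference of Angptl4 was 2.65 in depleted cocultures, which ranked 18 of the 12061 genes tested, 1.60 in replete cocultures, 1.997 in depleted monocultures and 0.57 in replete monocultures (SE 0.0789 for each, highest limma adjusted p = 8.73e-06). Withdrawal raised it in KO cells, by 0.98 in coculture and 1.58 in monoculture (limma adjusted p = 4.98e-08 and 9.85e-13). In WT cells the withdrawal differences were -0.07 in coculture and 0.16 in monoculture (95% confidence intervals -0.23 to 0.10 and -0.01 to 0.32). The difference of the withdrawal effects between genotypes was 1.05 in coculture and 1.43 in monoculture (limma adjusted p = 6.96e-06 and 1.85e-09). The coculture rises were 3.24 and 3.84 in KO cells in depleted and replete medium, and 2.59 and 2.81 in WT cells (highest limma adjusted p = 2.45e-15), or 10.2, 19.1, 8.66 and 10.8 as ratios of mean FPKM. In replete medium the rise was larger in the KO than in WT by 1.03 (limma adjusted p = 5.96e-06). In depleted medium that difference, 0.65 (limma adjusted p = 5.15e-05), fell to 0.28 with a pseudocount of 0.1 (adjusted p = 0.111) and to 0.27 with voom on the recovered reads (adjusted p = 0.109).

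Vegfc and Nrp1 were barely expressed, and neither reached 1 FPKM in 3 libraries, the minimum for a test. Vegfc ranged over all 24 libraries from 0.269 to 1.003 FPKM, on 14 to 48 reads, and was highest in depleted KO monocultures at 0.822 ± 0.0426 FPKM, against 0.466 ± 0.140 FPKM in depleted WT monocultures (SD, n = 3 each). Nrp1 ranged from 0.131 to 0.512 FPKM, on 24 to 90 reads. Its means were 0.484 ± 0.0257 FPKM in KO and 0.159 ± 0.0283 FPKM in WT monocultures in depleted medium, and 0.400 ± 0.0826 FPKM in KO and 0.194 ± 0.05 FPKM in WT monocultures in replete medium (SD, n = 3 each). In cocultures the KO and WT values of Nrp1 overlapped, with means of 0.304 and 0.330 FPKM in depleted medium and 0.259 and 0.224 FPKM in replete medium. In a fit with no minimum level, the KO minus WT difference of Nrp1 was 0.36 in depleted and 0.23 in replete monocultures (limma adjusted p = 1.82e-06 and 0.000878). In the same fit Nrp1 fell with coculture in KO cells, by 0.19 in depleted and 0.15 in replete medium (limma adjusted p = 0.00222 and 0.0227), and rose in depleted WT cells by 0.20 (limma adjusted p = 0.00454), with 0.04 in replete WT cells (limma adjusted p = 0.821). The coculture effect on Nrp1 differed between genotypes by -0.39 in depleted medium (limma adjusted p = 8.18e-05) and by -0.19 in replete medium (limma adjusted p = 0.128). For Vegfc, withdrawal gave a rise of 0.42 in KO monocultures (limma adjusted p = 0.00148), KO minus WT was 0.32 in depleted monocultures (limma adjusted p = 0.0118), and the coculture effect differed between genotypes by -0.50 in depleted medium (limma adjusted p = 0.00799).

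Ordered by mean level over the 8 groups, Adm ran from WT cocultures in replete medium (34.7 FPKM) to KO monocultures in depleted medium (0.143 FPKM), with the 3 other monoculture groups overlapping each other. Pgf had the same groups at both ends (32.7 and 0.116 FPKM), and only its 3 highest groups overlapped as neighbours. Angptl4 ran from KO cocultures in depleted medium (106 FPKM) to WT monocultures in replete medium (1.56 FPKM), and its only overlapping neighbours were the WT groups that differed by medium. Vegfa ran from KO cocultures in replete medium (165 FPKM) to WT monocultures in replete medium (92.8 FPKM), with overlap within 3 runs of neighbours: the 2 replete cocultures, the 2 depleted cocultures and the lowest 3 monoculture groups. Vegfb ran from WT monocultures in depleted medium (106 FPKM) to KO monocultures in depleted medium (19.9 FPKM), and each of the 6 highest groups overlapped with its neighbour. All neighbours overlapped in the order of Vegfc and in that of Nrp1.

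Counted over the 5 genes that reached the minimum, Adm among them only through its cocultures, coculture changed 5 of 5 in depleted KO cells, where 71.3% of all tested genes changed (35% higher and 36.3% lower). In replete KO cells it changed 4 of 5, against a background of 40% (20.1% higher, 19.9% lower). It changed 4 of 5 in depleted WT cells, against 28.1% (14.9% higher, 13.1% lower), and 5 of 5 in replete WT cells, against 31.2% (16.3% higher, 14.9% lower). The changes were all rises apart from Vegfb in replete WT cells. By voom 5 of 5 changed in each of the 4 settings, with Vegfb lower in replete KO and depleted WT cells too. Most tested genes changed in the comparisons that use depleted KO monocultures, so a count there says little about these genes.

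Withdrawal changed 5 of 5 genes in KO monocultures, where 70.8% of all tested genes changed (36.2% higher, 34.5% lower), and 5 of 5 in KO cocultures, where 29.9% changed. That share stands for 3607 genes, and it was 2152 genes without replicate 2 of the depleted KO cocultures and 1820 with only those groups in the fit. In WT monocultures it changed 1 of 5, Pgf, against a background of 1.63%. In WT cocultures it changed 0 of 5 by limma, against 0.738% of all genes; 1 of 5, Vegfa, had an unadjusted p under 0.05 by limma, and voom also called 0 with 1 under that limit. The KO differed from WT in 5 of 5 genes in depleted monocultures, against 73.6% of all genes (37.4% higher, 36.3% lower). It differed in 4 of 5 in depleted cocultures, against 53.6%, in 2 of 5 in replete monocultures, against 42.7%, and in 3 of 5 in replete cocultures, against 43.9%. These shares of the tested genes are so high that a KO difference in itself sets none of the 5 genes apart.

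The differences between effects were tested as interactions. The withdrawal effect differed between genotypes for 4 of 5 genes in monoculture, against 61.2% of all genes, and for 4 of 5 in coculture, against 14.4% (1076 to 3080 genes without single libraries of depleted KO cocultures, instead of 1742). In monoculture voom called 3 of 5. The call it lacked was Vegfa (0.21, limma adjusted p = 0.0261), which was also lost with quantile normalization, with only the groups compared in the fit (adjusted p = 0.054) and without any of 4 single libraries, replicate 1 of the replete KO (0.0667), replicate 1 of the replete WT (0.0553) and replicates 2 and 3 of the depleted KO monocultures (0.0595 and 0.0585). The coculture effect differed between genotypes for 3 of 5 genes in replete medium, against 10.4% of all genes, and for 5 of 5 in depleted medium, against 60.9%. The coculture effect differed between media for 5 of 5 genes in KO cells, against 57.7%. In WT cells it differed for 0 of 5 by limma, against 1.67% of all genes, with 2 of 5 (Vegfa and Pgf) at an unadjusted p under 0.05 and 0 called by voom. For Adm the sign or call of these tests depends on the scale: in KO cells the coculture rise was smaller in depleted than in replete medium by -0.56 on the log2(FPKM + 1) scale (limma adjusted p = 0.00351), but the same difference was 0.31 with a pseudocount of 0.1 and 0.73 with voom, neither of which passed the test. The smaller coculture rise of Adm in KO than in WT cells, by -1.09 in depleted and -0.59 in replete medium (limma adjusted p = 3.27e-06 and 0.0149), also lost its call in both of those analyses.

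**Figure D3:**
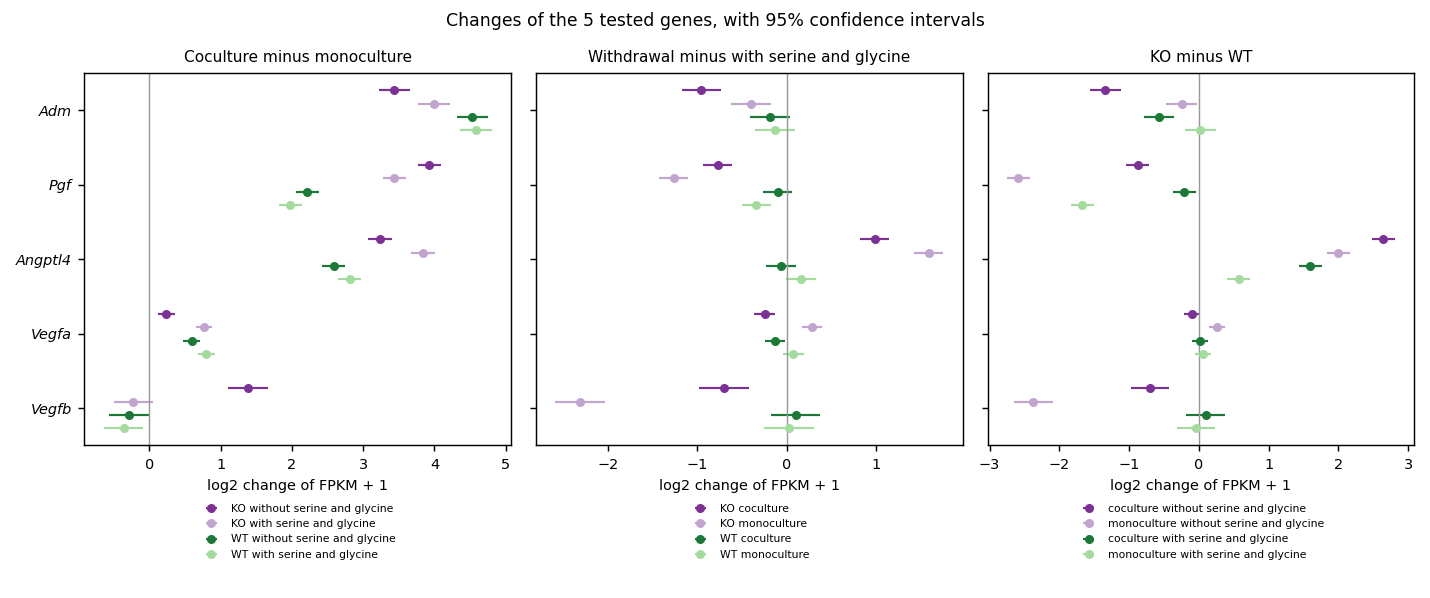
Log2 change of FPKM + 1 with 95% confidence intervals for the 5 tested genes, in 3 panels for coculture minus monoculture, withdrawal minus replete medium, and KO minus WT, with 4 settings each. Coculture shifts Adm, Pgf and Angptl4 far above 0 in all settings. Withdrawal moves genes mainly in KO cells (purple), with Angptl4 higher and Vegfb, Pgf and Adm lower. The largest of these changes is that of Vegfb in KO monocultures, -2.31.

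Other genes under the same known control were read from lists drawn up with earlier results of these data in view. Whether HIF acted on the genes described here was not tested. Of 27 tested HIF target genes, 26 rose in coculture in depleted KO cells (median log2 change 2.69) and 24 in replete KO cells (1.59). In WT cells 24 rose in depleted medium (1.67) and 24 in replete medium (1.57). The median over all tested genes was between -0.02 and -0.01. Over all tested genes, 35%, 20.1%, 14.9% and 16.3% rose in these settings, and 36.3%, 19.9%, 13.1% and 14.9% fell. These shares also stand behind the coculture counts of regulators of the HIF pathway below. None of the 27 fell in any of these comparisons by limma, also at an unadjusted p under 0.05, and voom called 1 lower in replete WT cells only. In depleted KO cells, Bnip3, a mitophagy receptor, rose by 6.19, Egln3, a HIF prolyl hydroxylase, by 5.92 and Pdk1, which limits pyruvate oxidation, by 4.25. In replete WT cells Egln3 rose by 4.39, Bnip3 by 3.17 and P4ha2, a collagen prolyl hydroxylase, by 2.92. Withdrawal in KO monocultures lowered 22 of the 27 and raised 3 (median -1.21). In depleted monocultures 22 were lower and 4 higher in KO than in WT cells (median -0.95). Over all tested genes, 34.5% were lowered and 36.2% raised by that withdrawal, and 36.3% were lower and 37.4% higher in that genotype comparison. In KO cocultures withdrawal lowered 16 and raised 0 (median -0.30), against 1742 lowered and 1865 raised among all 12061 tested genes. Of 11 tested regulators of the HIF pathway, 4 rose and 3 fell in coculture in depleted KO cells, 5 rose in replete KO cells, 2 rose and 2 fell in depleted WT cells, and 4 rose and 1 fell in replete WT cells. Among them Egln1 and Egln3, which the list of target genes also holds, rose most in coculture, and Hif1a did not pass the test in any of the 4 coculture comparisons (log2 changes 0.04 in depleted KO, -0.26 in replete KO, -0.28 in depleted WT and -0.24 in replete WT cells).

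The cancer cells also expressed some receptors of these ligands. The list of receptors and co-receptors also holds the plexins Plxna1, Plxna2, Plxna3, Plxna4 and Plxnd1, which are receptors of semaphorins. Its counts and medians are thus not of receptors of these ligands alone. Of 10 tested receptors and co-receptors, 7 rose and 3 fell in coculture in depleted KO cells, 7 rose in replete KO cells, 5 in depleted WT cells and 6 in replete WT cells, with medians of 0.53, 0.43, 0.22 and 0.43. Over all tested genes the shares that rose in these settings were 35%, 20.1%, 14.9% and 16.3%, and the shares that fell were 36.3%, 19.9%, 13.1% and 14.9%, which also stand behind the coculture counts of the lists that follow. Ackr3, a scavenger receptor that binds adrenomedullin, was at 7.76 FPKM in depleted KO cocultures, against 1.199 FPKM in the KO monocultures, a rise of 1.99, and at 12.1 FPKM in replete WT cocultures, against 2.08 FPKM in the WT monocultures, a rise of 2.09. Ramp3, the partner that makes Calcrl an adrenomedullin receptor, rose by 1.41 in replete WT cells, to 3.13 FPKM in cocultures, against 0.551 FPKM in monocultures. Calcrl itself was higher in KO than in WT cocultures in depleted medium, at 5.73 and 0.711 FPKM, a difference of 1.97. Nrp2, a co-receptor related to Nrp1, was lower there, at 3.30 FPKM in KO and 12.4 FPKM in WT cocultures, a difference of -1.63. Kdr, Flt4 and Ramp2 stayed below the minimum for a test, with group means of at most 0.209, 0.0680 and 0.0964 FPKM.

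Of 15 tested other ligands of vessel growth, 11 rose and 2 fell in coculture in depleted KO cells, 7 rose and 3 fell in replete KO cells, 6 rose and 3 fell in depleted WT cells, and 5 rose and 2 fell in replete WT cells (medians 0.45, 0.21, 0.17 and 0.16). Efna1, a membrane-bound ephrin ligand, rose by 1.27 in replete KO and 1.05 in depleted WT cells. Angpt2, a ligand of the Tie2 receptor, rose by 2.48 in depleted KO cells, where it was at 11.2 FPKM in cocultures, against 1.21 FPKM in monocultures, and it was lower by -2.98 in depleted KO than in depleted WT monocultures. Of 8 tested inhibitors of angiogenesis, 6 rose and 1 fell in depleted KO cells and 3 rose and 1 fell in replete KO cells, against 1 that rose and 3 that fell in WT cells of either medium (medians 0.52, 0.27, -0.10 in depleted and -0.14 in replete WT cells). With 71.3% of all genes called in depleted KO and 40% in replete KO cells, against 28.1% and 31.2% in depleted and replete WT cells, these counts of 8 genes do not show a difference between genotypes. Of the 3 tested class 3 semaphorins, 1 rose and 2 fell in coculture in depleted KO cells, 0 changed in replete KO cells, 1 rose and 1 fell in depleted WT cells, and 1 fell in replete WT cells. Sema3e, a ligand of Plxnd1 that the list of inhibitors also holds, fell in coculture by 0.96 in depleted KO cells and by 0.58 in WT cells of either medium.

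Of 8 tested proteases and matrix partners that process or bind these ligands, 4 rose and 1 fell in coculture in each medium in KO cells, 4 rose and 2 fell in depleted WT cells, and 5 rose and 1 fell in replete WT cells. Fn1, which encodes fibronectin, rose by 1.62 in depleted KO and 1.68 in replete WT cells. Pam, which amidates peptide hormones such as adrenomedullin, rose by 1.297 in depleted KO and 0.85 in replete KO cells. Of 16 tested PPAR targets and receptors, 8 rose and 5 fell in coculture in depleted KO cells, 6 rose in replete KO cells, 3 rose and 1 fell in depleted WT cells, and 3 rose in replete WT cells (medians 0.24, 0.16, 0.04 and -0.0039). By voom 4 rose and 3 fell in replete KO cells and 3 rose and 3 fell in replete WT cells, so the absence of falls there depends on the analysis. Between genotypes 10 of the 16 were higher and 1 lower in KO than in WT cocultures in depleted medium (median 0.33), where 3167 of all 12061 tested genes were higher and 3303 lower. Pparg, the receptor PPAR gamma, was at 59.6 FPKM in KO and 17.4 FPKM in WT cocultures there, a difference of 1.72. Of 23 tested targets of ATF4, the transcription factor of amino acid stress, withdrawal raised 12 and lowered 7 in KO monocultures (median 0.27), and raised 4 and lowered 7 in KO cocultures (median -0.03). Over all genes 36.2% were raised and 34.5% lowered in KO monocultures. In KO cocultures 29.9% changed, with 1865 of all 12061 tested genes raised and 1742 lowered. Whether the 23 genes depart from these shares was not tested.

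**Figure D4:**
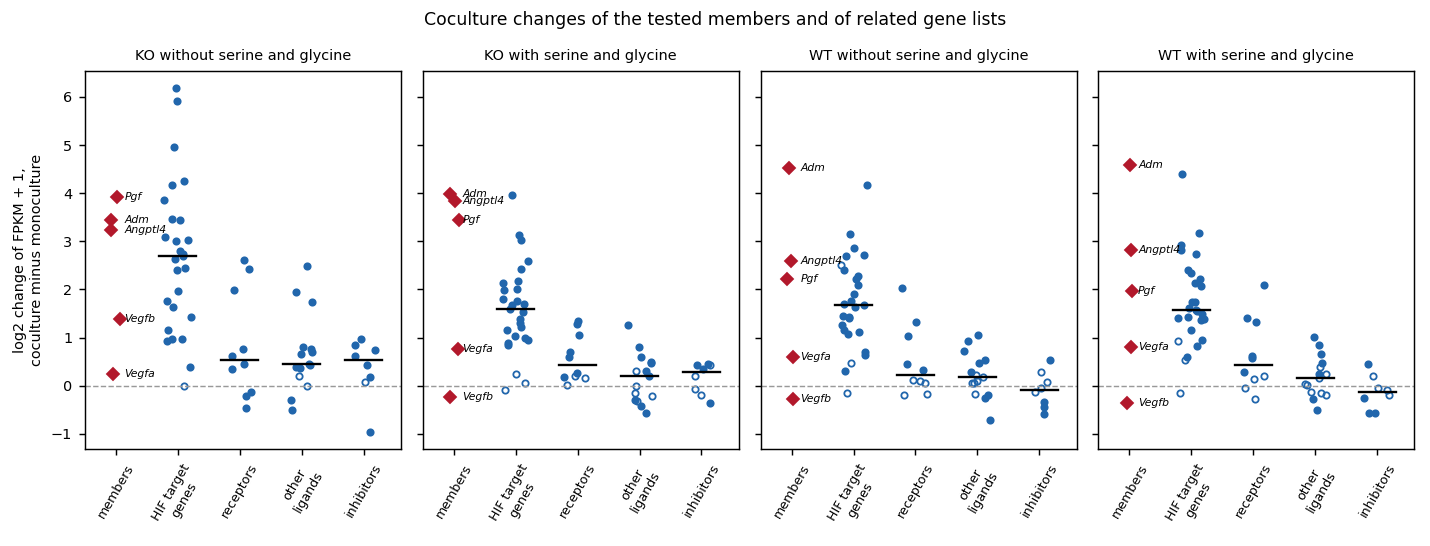
Log2 change of FPKM + 1 with coculture in 4 settings for the 5 tested genes (red diamonds) and for the genes of 4 lists (circles, filled where the test was passed, with a bar at the list median). The dashed line is the median of all 12061 tested genes. The medians of the HIF targets, 1.57 to 2.69, lie above it in all 4 settings, though single targets do not. The medians of receptors (plexins included), other ligands and inhibitors lie closer to it. All lists were drawn up with earlier results of these data known, so the medians only describe them.

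Across the 24 libraries the 5 tested genes followed different courses, given here as Pearson correlations of log2(FPKM + 1) that describe 8 groups sharing culture, medium and genotype. Adm correlated with Vegfa at 0.91, with Pgf at 0.89 and with Angptl4 at 0.73, and Vegfb correlated with these 4 genes at -0.31 to 0.50. Among 6373 protein-coding genes with a mean of at least 5 FPKM, the genes most like Adm were Pgk1 (r = 0.991), a glycolytic enzyme, Kctd11 (0.991) and Egln1 (0.988), a HIF prolyl hydroxylase. Those most like Vegfa were Rubcn (0.974), Jmjd6 (0.966) and Efna1 (0.960). Vegfb was followed most closely by Spire2 (0.990), Agpat1 (0.987) and Dmac2 (0.983), and Pgf by Nadk2 (0.982), Pmaip1 (0.977) and Ripk4 (0.976). Pgk1 shows the pattern on which the first of these rests, with 978 FPKM in depleted KO, 1330 in replete KO, 1538 in depleted WT and 1591 in replete WT cocultures, against 249, 337, 362 and 364 FPKM in the matching monocultures.

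**Figure D5:**
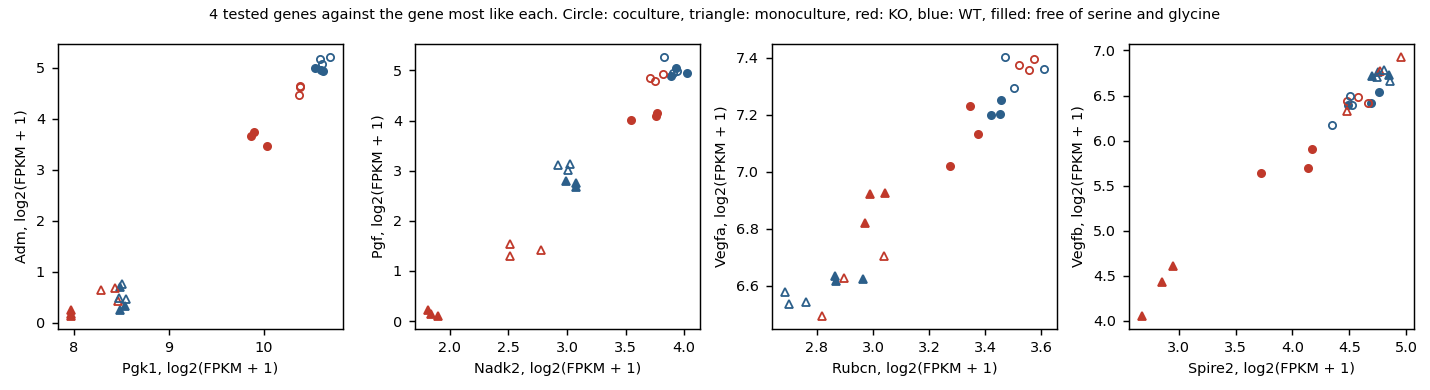
Adm, Pgf, Vegfa and Vegfb, each plotted against the gene most like it, both as log2(FPKM + 1), with 1 symbol per library (24 in each panel; circles are cocultures, triangles monocultures, red KO, blue WT, filled symbols depleted medium). In the panels of Adm, Pgf and Vegfa the cocultures and monocultures do not overlap, and in the panel of Vegfb the 3 depleted KO monocultures lie far below the other libraries.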

How the data were processed

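RNA-seq of 24 HY19636 libraries was analysed from the 1 table of FPKM that the authors deposited, with gene positions on GRCm38. The submitters' processing notes name HISAT2 and the mouse build GRCm38 (mm10). No source used here gives the version of HISAT2, the counting tool, the annotation release or the strand setting. Each library's values, once multiplied by gene length, fell on steps of 1 read (100% within 0.01 of a whole read), which gave back the reads, 15740081 to 23479425 per library. The total that scaled each library was 1.002 to 1.068 times these reads in monocultures and 0.969 to 1.003 times in cocultures. How this total was set is not given. With voom on read totals the median coculture change shifted by -0.053 to -0.092. Reads without molecular identifiers are not independent molecules, so read numbers bear on counting error only.

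Values were tested as log2(FPKM + 1) with limma 3.58.1 in R 4.3.3 over all 24 libraries and 8 groups, for the 12061 genes with at least 1 FPKM in at least 3 libraries, with Benjamini-Hochberg adjustment over all of them and a threshold of 0.05. Each of 12 pairwise comparisons and 6 interactions was a contrast of that fit, which was tested on simulated data. Alternatives were a pseudocount of 0.1, no filter, a mean of at least 5 FPKM in a group, quantile normalization, limma voom on the recovered reads, a replicate block, a fit of only the groups compared, and each library left out in turn. Python 3.11.15 and pandas 2.3.3 were used for summaries.

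The genes and lists were chosen with earlier results of these data known. Named beside the 7 genes are, from each list, at most the 4 called genes with the largest change in a comparison, or a list's genes below the minimum level, and for Adm, Pgf, Vegfa and Vegfb the 3 genes with the highest correlation (for Angptl4 these are not reported here). Hif1a in coculture and Sema3e beside the semaphorins were named after their values were seen. In withdrawal in KO monocultures, deviations of same-numbered libraries from their group means correlated at 0.40, 0.28 and 0.11 for replicates 1, 2 and 3. Differently numbered libraries were not compared, and replicate 1 of both groups stood apart. Pairing by replicate number is thus not shown, and the labels state none. Promoter sequences are from RefSeq (GRCm38.p6) and matched 6 of the 7 genes by symbol.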

Additional observations from a re-analysis of the deposited data

Results flagged for a closer look

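Effects that differed between genotypes or media by an interaction test in limma are listed here as log2 differences, without weighing. The withdrawal effect in monoculture was larger in KO than in WT cells by 0.21 for Vegfa and 1.43 for Angptl4, and it differed by -2.33 for Vegfb and -0.92 for Pgf. In coculture the withdrawal effect in KO cells differed from that in WT cells by -0.77 for Adm, -0.80 for Vegfb, -0.67 for Pgf and 1.05 for Angptl4. The Vegfa difference of 0.21 became -0.017 with quantile normalization and lost its call with voom. The Adm difference of -0.77 lost its call with a pseudocount of 0.1.

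The coculture effect in KO cells differed from that in WT cells, in replete medium, by -0.59 for Adm, 1.46 for Pgf and 1.03 for Angptl4. In depleted medium it differed by -1.09 for Adm, -0.35 for Vegfa, 1.67 for Vegfb, 1.71 for Pgf and 0.65 for Angptl4. Within KO cells the coculture effect in depleted medium differed from that in replete medium by -0.56 for Adm, -0.53 for Vegfa, 1.61 for Vegfb, 0.49 for Pgf and -0.60 for Angptl4. All Adm differences in this paragraph lost their calls with a pseudocount of 0.1 and with voom, where that of -0.56 became 0.31 and 0.73. So did the Angptl4 difference of 0.65. The Vegfa difference of -0.35 lost its call with quantile normalization.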

How the results depend on the processing

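Of 90 log2 changes of the 5 tested genes, 62 kept their direction and side of the threshold in every alternative, including all 12 coculture rises of Adm, Pgf and Angptl4. Those of Adm rest on the cocultures through which alone it reached the minimum for a test. The causes of the changes below were not tested. The replicate block ended 1 call, the coculture difference of Vegfb in replete WT cells (-0.36, adjusted p = 0.0561). Deviations of same-numbered libraries correlated there at 0.02, 0.05 and 0.04. The block changed no call in withdrawal of KO monocultures, where they correlated at 0.40, 0.28 and 0.11. With a pseudocount of 0.1 the number of members called was 1 instead of 3 for KO minus WT in replete cocultures, 3 instead of 5 for genotype by coculture in depleted medium (also 3 with voom) and 0 instead of 1 for withdrawal in WT monocultures (also 0 with voom; without single replicates 0 to 1). With quantile normalization it was 3 instead of 5 for KO minus WT in depleted monocultures and 1 instead of 0 for coculture by withdrawal in WT cells (also 1 with only the groups compared in the fit).

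Signs that turned were mostly of differences that did not pass the test. For Adm in KO minus WT in replete monocultures, 0.02 became -0.0067 with quantile normalization, -0.0070 without both KO monoculture libraries that stand apart (an alternative chosen after seeing the data), and -0.032 to 0.12 without single replicates. Coculture by withdrawal of Adm in KO cells, a call, became 0.31 with a pseudocount of 0.1 and 0.73 with voom, and in WT cells 0.23 and 0.32, and -0.15 to 0.083 without single replicates. For Vegfa, quantile normalization gave -0.052 for KO minus WT in replete cocultures (-0.0060 to 0.048 without single replicates) and -0.017 for genotype by withdrawal in monoculture, a call; genotype by coculture in replete medium ran from -0.090 to 0.015 without single replicates. For Vegfb, leaving out both libraries gave 0.14 for KO minus WT in replete monocultures (-0.16 to 0.14 without single replicates) and -0.039 for genotype by coculture in replete medium (-0.039 to 0.26). Without single replicates, Vegfb ran from -0.0059 to 0.054 for withdrawal in WT monocultures and from -0.013 to 0.15 for coculture by withdrawal in WT cells.

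Numbers of all genes called moved with only the groups compared in the fit, to 3165 for KO minus WT in replete monocultures, 1820 for withdrawal in KO cocultures, 302 and 4 for withdrawal in WT monocultures and cocultures, 2840 for coculture in replete KO cells, 769 for genotype by coculture in replete medium and 552 for coculture by withdrawal in WT cells. Without both libraries that stand apart they were 431 and 209 for withdrawal in WT monocultures and cocultures, 3486 for genotype by withdrawal in coculture and 482 for coculture by withdrawal in WT cells. Withdrawal in WT cocultures called 59 genes with a pseudocount of 0.1. Without single replicates the numbers were 2152 (without replicate 2 of depleted KO cocultures) to 4619 (without replicate 1) for withdrawal in KO cocultures, 62 to 140 and 37 to 50 for withdrawal in WT monocultures and cocultures, 1076 to 3080 for genotype by withdrawal in coculture and 100 to 195 for coculture by withdrawal in WT cells.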
